A study of Mus musculus with 8 samples.

Results

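The genes described here are 38 genes of cholesterol and fatty acid synthesis, chosen by symbol for their place in these pathways, of 13332 genes measured in secondary neurospheres from the adult mouse hippocampus. They comprise 7 genes of the mevalonate pathway, 10 of the sterol pathway that follows it, 4 of sterol control and transport, 11 of fatty acid synthesis and 6 liver X receptors and targets. All 38 had a probe that passed the filter on dim signals, and 37 of them were well above background on all 8 arrays (Gpam on 7). Secondary neurospheres are floating clusters grown from dissociated primary neurospheres.

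Cells make cholesterol from acetyl-CoA through mevalonate, squalene and lanosterol, and fatty acids from the same precursor through malonyl-CoA. The transcription factors SREBP-2 and SREBP-1, encoded by Srebf2 and Srebf1, switch on the genes of these routes when sterols run low, and INSIG1 holds their precursors in the endoplasmic reticulum when sterols are plentiful. The liver X receptors respond to oxysterols and switch on cholesterol efflux. In the brain cholesterol is made locally, and neural stem cells depend on fatty acid synthesis.

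The genotype arm held Sirt1 KO and WT neurospheres of the 129/ICR background, harvested after 6 days of culture. The treatment arm held wild-type C57BL/6 neurospheres cultured for 5 days and then given resveratrol or its vehicle DMSO for 24 hours, with a resveratrol dose of 10 and its unit written as "mm". Each of the 4 groups had 2 arrays. All mice were 7 to 9 weeks old. By the labels the genotype arm took replicate 1 from female and replicate 2 from male mice, while the treatment arm used male mice throughout. The deacetylase SIRT1 consumes NAD, and the plant compound resveratrol is given as its activator. The labels do not say which part of Sirt1 is deleted, in which cells, or whether replicates are separate animals or cultures, so the p-values reflect no more than the spread among these samples, which may be technical.

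Values are log2 signals centred on the 75th percentile of the array, so that 0 is that percentile and 1 unit is a doubling. The percentile itself ran from 740.4 to 909.7 for replicate 1 and from 256.6 to 388.1 for replicate 2, and replicate number therefore went with signal strength. In the treatment arm it was also the slide. All 12 neural stem and progenitor markers, such as Nes, Sox2 and Fabp7, were well above background on all 8 arrays, with a mean level of 2.21 to 2.51. Of 7 microglial and 6 endothelial markers, 2 each had a probe that passed the filter. The brighter of 2 kept Sirt1 probes read 0.42 and -0.07 on the Sirt1 KO arrays, against 0.16 and 0.17 on the WT arrays, a difference of 0.01 (SE 0.24; limma, adjusted p = 1). The other read -1.01 and -1.92 on the Sirt1 KO arrays, against -1.34 and -0.99 on the WT arrays, a difference of -0.30 with overlap between the groups. Where these probes lie relative to the deletion is not given in the sources used here, so they do not check the genotype, and Sirt1 KO below means arrays labelled so.

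Promoter sequence was available for 30 of the 38 genes, as 300 bases from 250 before to 50 after an annotated start (RefSeq, GRCm38.p6). The CCAAT box, a site of the factor NF-Y that works beside SREBP, was present on either strand in 13 of 14 genes of the mevalonate and sterol pathways (92.9%), against 41.1% of 27025 genes. In all 30 genes the share was 76.7%, and in the 8 fatty acid synthesis genes 62.5%. The E-box CACGTG was found in 6 of the 30 genes (20%), against 8.09% of all genes. The core of a sterol regulatory element, TCACNCCAC, was found in Hmgcs1 alone among the 30 genes, against 1.44% of all genes. The motifs do not overlap in the promoters printed below. Those of Hmgcs1, Idi1, Cyp51 and Msmo1 are shown because these genes were lower with resveratrol on both slides, that of Insig1 because it was higher beside them, and that of Abca1 because both Sirt1 KO arrays lay above both WT arrays. Capitals mark CCAAT or its reverse ATTGG, TCACCCCAC and CACGTG.
Hmgcs1, chr13:119690101-119690400, plus strand: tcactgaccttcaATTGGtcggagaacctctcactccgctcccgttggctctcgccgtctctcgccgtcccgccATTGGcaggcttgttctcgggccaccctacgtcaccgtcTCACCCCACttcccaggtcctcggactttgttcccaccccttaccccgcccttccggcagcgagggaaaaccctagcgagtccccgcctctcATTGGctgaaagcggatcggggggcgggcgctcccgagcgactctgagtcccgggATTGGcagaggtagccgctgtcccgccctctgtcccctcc
Idi1, chr13:8885356-8885655, plus strand: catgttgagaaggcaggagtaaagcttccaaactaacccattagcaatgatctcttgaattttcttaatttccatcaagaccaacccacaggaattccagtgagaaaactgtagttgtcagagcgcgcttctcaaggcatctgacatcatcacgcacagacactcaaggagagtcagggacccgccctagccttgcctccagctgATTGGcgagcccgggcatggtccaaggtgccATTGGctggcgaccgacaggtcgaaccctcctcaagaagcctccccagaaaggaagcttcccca
Cyp51, chr5:4104648-4104947, minus strand: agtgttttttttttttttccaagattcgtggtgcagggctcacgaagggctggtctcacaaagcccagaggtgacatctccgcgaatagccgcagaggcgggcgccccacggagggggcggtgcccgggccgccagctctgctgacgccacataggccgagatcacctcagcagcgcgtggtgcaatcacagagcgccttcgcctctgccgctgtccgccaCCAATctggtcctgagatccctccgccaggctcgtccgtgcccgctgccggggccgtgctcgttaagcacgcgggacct
Msmo1, chr8:64733529-64733828, minus strand: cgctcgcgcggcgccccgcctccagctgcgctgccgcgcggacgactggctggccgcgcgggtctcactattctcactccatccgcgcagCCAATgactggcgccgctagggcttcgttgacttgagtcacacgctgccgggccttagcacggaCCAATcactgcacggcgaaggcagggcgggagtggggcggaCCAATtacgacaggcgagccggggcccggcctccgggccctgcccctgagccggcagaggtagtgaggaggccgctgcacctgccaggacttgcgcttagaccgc
Insig1, chr5:28071162-28071461, plus strand: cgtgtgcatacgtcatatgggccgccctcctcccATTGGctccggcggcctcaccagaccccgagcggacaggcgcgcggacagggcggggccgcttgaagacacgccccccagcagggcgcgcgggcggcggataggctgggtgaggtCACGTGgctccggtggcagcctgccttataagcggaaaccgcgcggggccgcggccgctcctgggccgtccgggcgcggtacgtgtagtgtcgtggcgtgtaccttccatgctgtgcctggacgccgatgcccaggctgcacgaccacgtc
Abca1, chr4:53159846-53160145, minus strand: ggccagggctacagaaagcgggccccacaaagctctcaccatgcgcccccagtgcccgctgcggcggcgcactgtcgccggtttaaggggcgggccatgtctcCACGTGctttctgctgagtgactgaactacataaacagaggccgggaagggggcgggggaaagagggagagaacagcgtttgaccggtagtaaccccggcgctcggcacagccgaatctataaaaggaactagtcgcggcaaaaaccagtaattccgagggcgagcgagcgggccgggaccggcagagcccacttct

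Resveratrol was compared with DMSO to ask how sterol and fatty acid genes stand after 24 hours of treatment. Genes of the mevalonate and sterol pathways were lower with resveratrol on both slides in 14 of 17 cases, with a median log2 difference of -0.25, against 0.01 over all genes. The liver X receptors and targets were higher on both slides in 5 of 6 cases, with a median of 0.22. No single gene passed the test: limma called 0 of the 38 members and 0 of all 13332 genes, 0.00% in each direction. At an unadjusted p of 0.05 it called 0 members and 161 genes (1.21%) higher and 0 members and 42 genes (0.315%) lower. Over all 38 members 21 were lower in both replicate numbers, against 33.0% of all genes, and 9 were higher, against 35.5%. Groups that did not overlap were lower with resveratrol in 9 members, against 8.86% of all genes, and higher in 5, against 10.2%.

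Among the mevalonate genes, Hmgcs1, which condenses acetyl-CoA units into HMG-CoA, read 5.42 and 5.31 on the resveratrol arrays, against 5.77 and 5.80 on the DMSO arrays. Both resveratrol arrays lay below both DMSO arrays, and the gene was 1.34-fold lower (log2 difference -0.42, SE 0.39, 95% interval -1.35 to 0.50; limma, adjusted p = 1). Its other kept probe differed by -0.51. Idi1, which isomerises isopentenyl diphosphate, read 2.89 and 2.92 on the resveratrol arrays, against 3.16 and 3.32 on the DMSO arrays, again without overlap (-0.34, SE 0.26). Fdps, which makes farnesyl diphosphate, read 2.57 and 2.92 with resveratrol, against 2.72 and 3.61 with DMSO. Its difference of -0.42 lay mostly in replicate 2, by -0.69, against -0.14 in replicate 1, and it turned sign without DMSO replicate 2. The decarboxylase Mvd (-0.20) and the mevalonate kinase Mvk (-0.10) were lower on both slides by less. The phosphomevalonate kinase Pmvk was higher on both, by 0.09 and 0.10, and the thiolase Acat2 differed in sign, by -0.07 and 0.22.

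In the sterol pathway 9 of 10 genes were lower on both slides. Lss, which closes the sterol rings to form lanosterol, had the largest difference among the members (-0.55, SE 0.48). It read -0.09 and -0.85 with resveratrol, against 0.05 and 0.11 with DMSO, so that the difference was -0.96 in replicate 2 and -0.14 in replicate 1. Its other kept probe differed by -0.58. Cyp51, the lanosterol demethylase, read 0.83 and 0.65 with resveratrol, against 1.07 and 1.25 with DMSO, without overlap (-0.42, SE 0.23). Fdft1, the squalene synthase, read 2.34 and 2.28 with resveratrol, against 2.50 and 2.84 with DMSO (-0.36, SE 0.23). Both resveratrol arrays again lay below both DMSO arrays. Sqle, the squalene epoxidase, read 3.83 and 3.65 with resveratrol, against 3.98 and 4.00 with DMSO (-0.25, SE 0.25). Msmo1, the methylsterol monooxygenase, read 4.53 and 4.93 with resveratrol, against 4.81 and 5.25 with DMSO. Its groups overlapped, but within the slides it differed by -0.28 and -0.33. Nsdhl, the sterol dehydrogenase that acts beside Msmo1, differed by -0.36 (SE 0.28). The desaturase Sc5d (-0.18), the reductase Hsd17b7 (-0.09) and the last reductase Dhcr7 (-0.06) were lower by less. The isomerase Ebp differed by -0.02 and 0.35.

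Most probes of these 17 genes shared the direction. Of 29 kept probes 25 were lower with resveratrol by their mean and 23 on both slides, and of the 10 genes with several kept probes 9 had all of them lower and Pmvk had all higher. The median of -0.25 was -0.14 within replicate 1 and -0.33 within replicate 2. It was -0.03 when DMSO replicate 2 was left out, against 0.11 over all genes, and 10 of the 17 genes were then lower. Without resveratrol replicate 1 it was -0.14, against 0.14 over all genes, with 11 lower. All 17 were lower without DMSO replicate 1 (-0.37, against -0.07) and without resveratrol replicate 2 (-0.33, against -0.09). With replicate number, here the slide, as a block, 9 members were lower at an unadjusted p of 0.05, against 4.85% of all genes: Hmgcs1, Idi1, Fdps, Fdft1, Sqle, Lss, Cyp51, Msmo1 and Elovl6. None passed after adjustment, where 0.0675% of all genes were called lower and 0.480% higher, and the smallest adjusted p among the members was 0.186 for Hmgcs1 (limma with the block). Markers of oligodendrocyte precursors were lower as well, with a median difference of -0.54 over 6 of 6 markers and a mean level of 3.41 and 2.50 with resveratrol, against 3.94 and 3.33 with DMSO. Their part in the sterol result was not tested. In RNA from whole neurospheres, fewer cells of a type and less RNA per cell cannot be told apart.

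**Figure D1:**
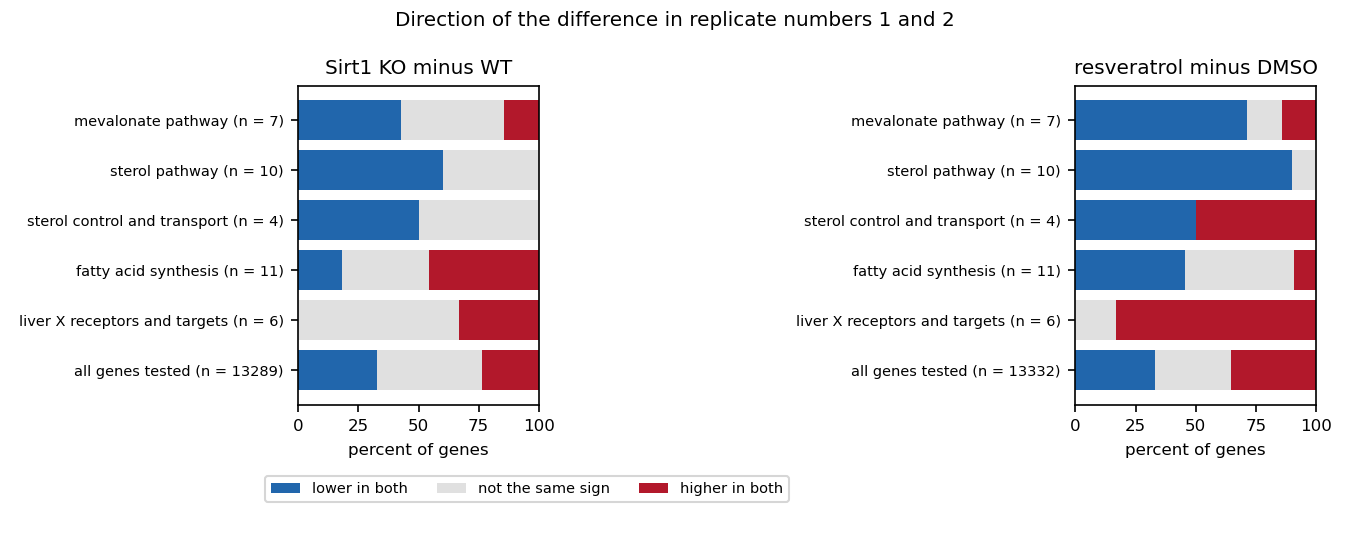
Percent of genes (horizontal axis) in each role whose difference was lower (blue) or higher (red) in both replicate numbers, or not of the same sign (grey), for Sirt1 KO minus WT on the left and resveratrol minus DMSO on the right, with all genes in the bottom row. With resveratrol 9 of 10 sterol pathway genes lie in the blue part and 5 of 6 liver X receptor genes in the red part, while in all genes the shares are 33.0% and 35.5%. In Sirt1 KO minus WT, 21 of 38 members turn sign under normexp background correction.

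The regulators of these routes differed among themselves with resveratrol. Insig1, which retains SREBP precursors and is itself an SREBP target, read 1.10 and 1.65 with resveratrol, against 0.79 and 1.41 with DMSO. It was higher by 0.31 and 0.24 on the slides (0.28, SE 0.45; limma, adjusted p = 1), in the direction opposite to most sterol pathway genes, although the groups overlapped and the difference was -0.03 without DMSO replicate 1. Srebf1 was higher on both slides (0.13), and Srebf2 (-0.12) and the cholesterol carrier gene Stard4 (-0.11) were lower on both. For Stard4 the difference in replicate 1 was -0.01, and its other kept probes differed by 0.14 and 0.03 and by 0.21 and -0.41. The other kept probe of Srebf2 differed by -0.27 and 0.00.

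Fatty acid synthesis genes showed no common direction with resveratrol, with a median of -0.01. On both slides 5 of 11 were lower, against 33.0% of all genes, and 1 was higher, against 35.5%. Elovl6, which elongates long saturated fatty acids, read 3.25 and 1.98 with resveratrol, against 3.42 and 2.66 with DMSO. It differed by -0.42 (SE 0.52), by -0.17 and -0.68 on the slides, and turned sign without resveratrol replicate 2. Acaca, the cytosolic acetyl-CoA carboxylase, differed by -0.11 and -0.37. Its other kept probes differed by -0.29 and 0.22, by -0.37 and -0.51, and by -0.19 and 0.25. Fasn, the fatty acid synthase, read 6.77 and 7.08 with resveratrol, against 6.84 and 7.22 with DMSO, a difference of -0.11 (SE 0.47). The acyltransferase Gpam (-0.09) and the desaturase Fads1 (-0.31, in replicate 2 by -0.58 and in replicate 1 by -0.04) were also lower on both slides, although Gpam turned sign under normexp and both did without DMSO replicate 1 or resveratrol replicate 2. Acacb, the carboxylase of mitochondrial membranes, was the gene higher on both, by 0.39 each time, with groups that overlapped. For Acly, which supplies cytosolic acetyl-CoA, Scd1 and Scd2, which introduce the first double bond, the elongase Elovl5 and the desaturase Fads2, the mean difference was 0.05 at most in size.

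Among the liver X receptors and their targets, Abca1, a cholesterol efflux transporter, read 1.27 and 1.46 with resveratrol, against 1.12 and 0.71 with DMSO. Both resveratrol arrays lay above both DMSO arrays, by 0.15 and 0.75 on the slides (0.45, SE 0.30, 95% interval -0.26 to 1.17; limma, adjusted p = 1). Mylip, which encodes a ubiquitin ligase, differed by 0.29, the phospholipid remodelling enzyme Lpcat3 by 0.18, the receptor Nr1h3 by 0.22 and the receptor Nr1h2 by 0.10. All 4 were higher on both slides. Abcg1, the other efflux transporter, differed by -0.09 and 0.52. The mean differences of these 6 genes kept their sign under normexp correction, quantile normalization and the deposited value table. Without DMSO replicate 1, Lpcat3 differed by 0.00 and Abcg1 by -0.46, Abcg1 differed by -0.77 without resveratrol replicate 2, and Abca1 differed by 0.25 without DMSO replicate 2.

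Among 54 other lipid genes, 51 were measured and limma called 0 with resveratrol. Of the 15 measured among other genes of sterol synthesis, uptake and control, 8 were higher in both replicate numbers, against 35.5% of all genes. In this list 5 were lower in both, against 33.0%. Me1, the malic enzyme that supplies NADPH for fatty acid synthesis, read 2.56 and 2.74 with resveratrol, against 1.84 and 1.74 with DMSO. It was 1.81-fold higher (0.86, SE 0.34; limma, adjusted p = 1), and it passed with the replicate block (adjusted p = 0.0355). Me1 did not pass with this block and quantile normalization, averaged probes or the deposited table, nor with slide as a block (limma, adjusted p = 0.882). Higher on both slides were also Pltp, a phospholipid transfer protein gene (0.93), the lipogenic factor gene Thrsp (0.77), the receptor gene Rxra (0.53) and the lipid carrier gene Apoe (0.35). Lower on both was Mlxipl, which encodes the carbohydrate-responsive factor ChREBP (-1.05, SE 0.75). It read -3.52 and -5.70 with resveratrol and was well above background on only 1 of these 2 arrays. Mlxipl and Rxra turned sign without resveratrol replicate 2.

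**Figure D2:**
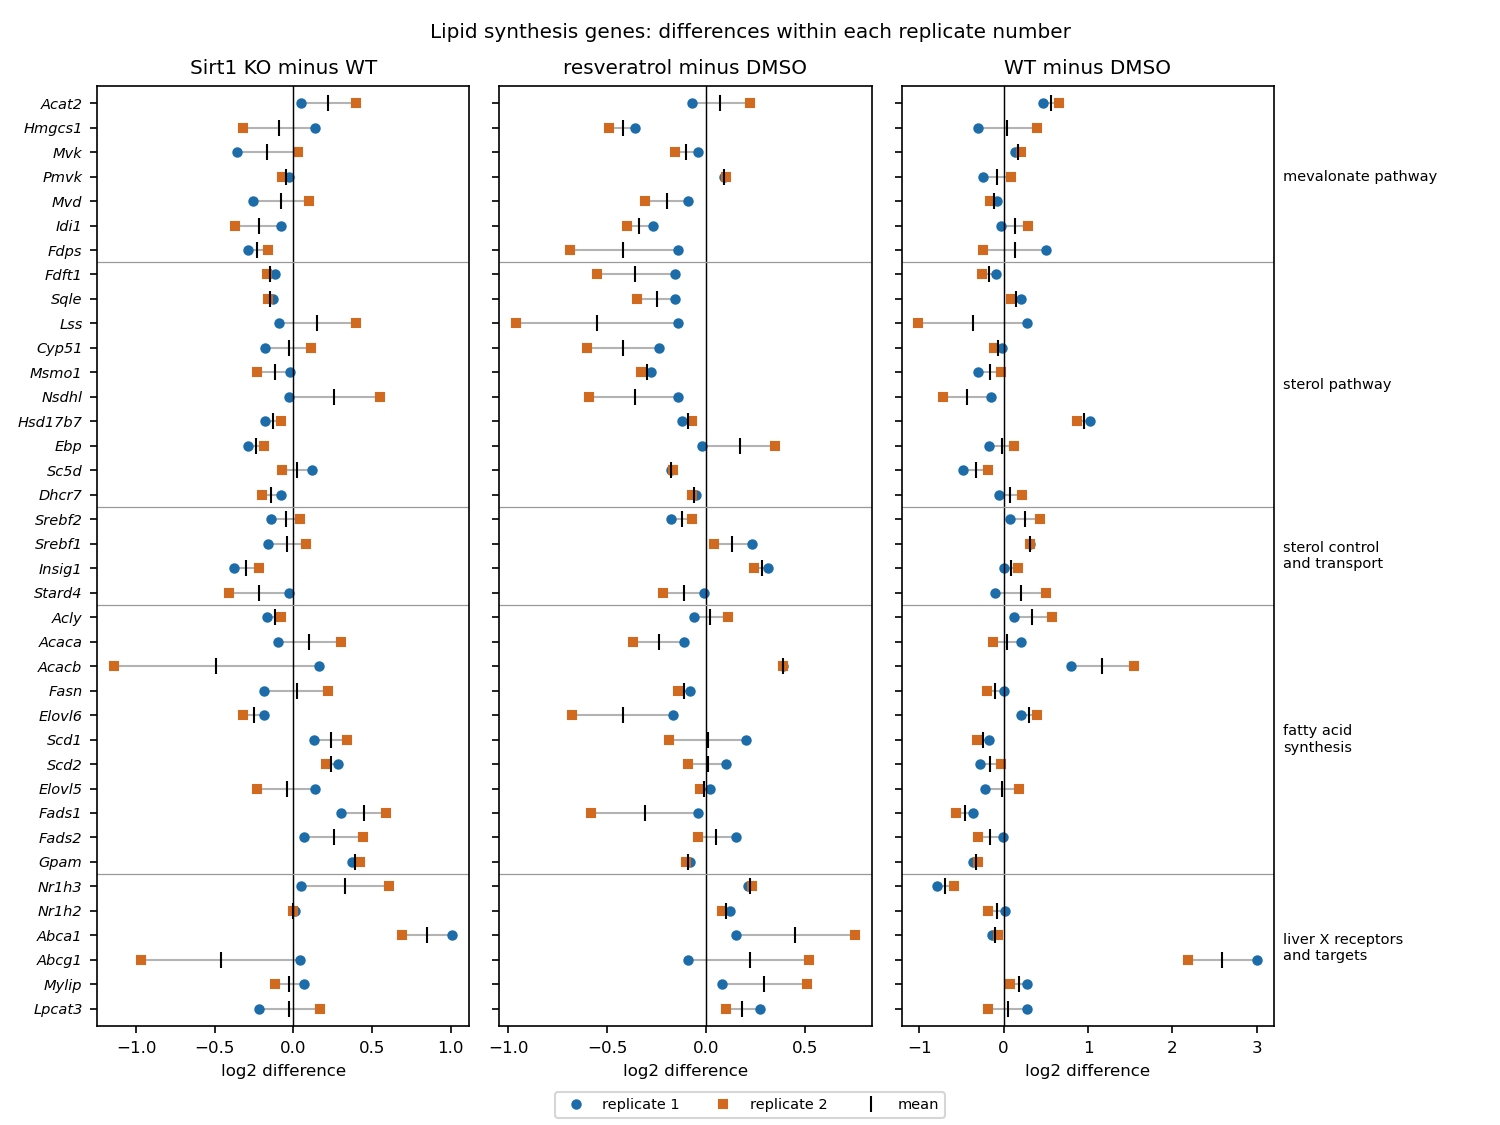
Log2 difference (horizontal axis) of each of the 38 genes in 3 comparisons (Sirt1 KO minus WT on the left, resveratrol minus DMSO in the middle, WT minus DMSO on the right), within replicate 1 (circles) and within replicate 2 (squares), with the mean as a tick. With resveratrol most sterol pathway genes lie left of 0 in both replicates, down to -0.96 for Lss, and Abca1 (Sirt1 KO minus WT) and Hsd17b7 and Abcg1 (WT minus DMSO) lie farthest right of 0 beside Acacb.

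The genotype arm addresses which of these genes differ between arrays labelled Sirt1 KO and WT. In the fit of group means the difference of greatest size was that of Abca1, at 0.85, while the medians of the roles ran from -0.13 to 0.10. With slide as a block Abca1 differed by 0.86, Abcg1 by -1.23, Acacb by -1.15 and Fads1 by 0.91, and under normexp Abca1 differed by 0.99 and Acacb by -1.12. The median over the 38 members was -0.05, against -0.03 over all genes. Of the 38 members 8 were higher in both replicate numbers, against 23.5% of 13289 genes with a value on every array, and 13 were lower, against 32.6%. Limma called 0 members and 0 genes, 0.00% in each direction. At an unadjusted p of 0.05 it called 1 member, Abca1, and 106 genes (0.795%) higher and 0 members and 52 genes (0.390%) lower. Groups that did not overlap were higher in 3 members, against 7.60% of all genes, and lower in 4, against 7.37%. Under normexp background correction 21 of the 38 members turned sign.

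Abca1 read 1.99 and 1.34 on the Sirt1 KO arrays, against 0.98 and 0.64 on the WT arrays. Both Sirt1 KO arrays lay above both WT arrays, by 1.01 in replicate 1, the female pair, and by 0.69 in replicate 2, the male pair. Only the replicate 2 pair shared a slide. The gene was 1.80-fold higher (0.85, SE 0.30, 95% interval 0.13 to 1.57; limma, adjusted p = 1), and missed the threshold with replicate number as a block too (adjusted p = 0.0843), where 0.338% of all genes were called higher and 0.0900% lower. With the replicate block and normexp together it passed (0.99; limma, adjusted p = 0.0135), but so did 5813 of 13332 genes and 14 of 38 members. With slide as a block its adjusted p was 0.488 (limma), where 0 of all genes were called. The difference ranged from 0.52 without Sirt1 KO replicate 1 to 1.18 without Sirt1 KO replicate 2. Nr1h3, the liver X receptor alpha gene, differed by 0.33, with 0.05 and 0.61 in the pairs, and turned sign under normexp. Abcg1 differed by 0.04 and -0.97, Mylip by 0.07 and -0.12, Lpcat3 by -0.22 and 0.17, and Nr1h2 by a mean of 0.00.

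Apoe, whose protein takes up the cholesterol that ABCA1 exports, read 5.67 and 6.32 in Sirt1 KO, against 4.30 and 4.79 in WT. It was 2.72-fold higher (1.45, SE 0.40; limma, adjusted p = 1) and passed with the block (adjusted p = 0.00776). Apoe kept this call with the block and quantile normalization, averaged probes or the deposited table. Me1 differed by 0.95 (SE 0.34, and SE 0.13 with the block). It was called with the block (limma, adjusted p = 0.0341), but lost its call in these 3 settings. With slide as a block limma called neither gene (adjusted p = 0.429 for Apoe and 0.479 for Me1) and 0 of all genes. Also higher were Mlxipl by 0.73 and Pltp by 0.72, both in both replicate numbers, but these turned sign under normexp. Mlxipl was well above background on only 1 of 2 WT arrays. Astrocyte markers had a median difference of 0.63 over 7 of 8 markers measured, with 4 higher and 1, Sox9, lower in both replicate numbers. Their mean level was 1.74 and 2.10 in Sirt1 KO, against 0.77 and 1.38 in WT. Among these markers Gfap and Aqp4 were well above background on 5 of 8 arrays. Mature oligodendrocyte markers had a median difference of 0.50 over 7 of 8 markers, with 4 higher and 1 lower in both replicate numbers. Their mean level was -1.07 and -1.39 in Sirt1 KO, against -1.71 and -1.65 in WT. Endothelial markers had a median of 1.18 over 2 of 6, with a mean level of -1.57 and -2.57 in Sirt1 KO, against -2.92 and -3.59 in WT. The part of these cell types in the values of Abca1 and Apoe was not tested.

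**Figure D3:**
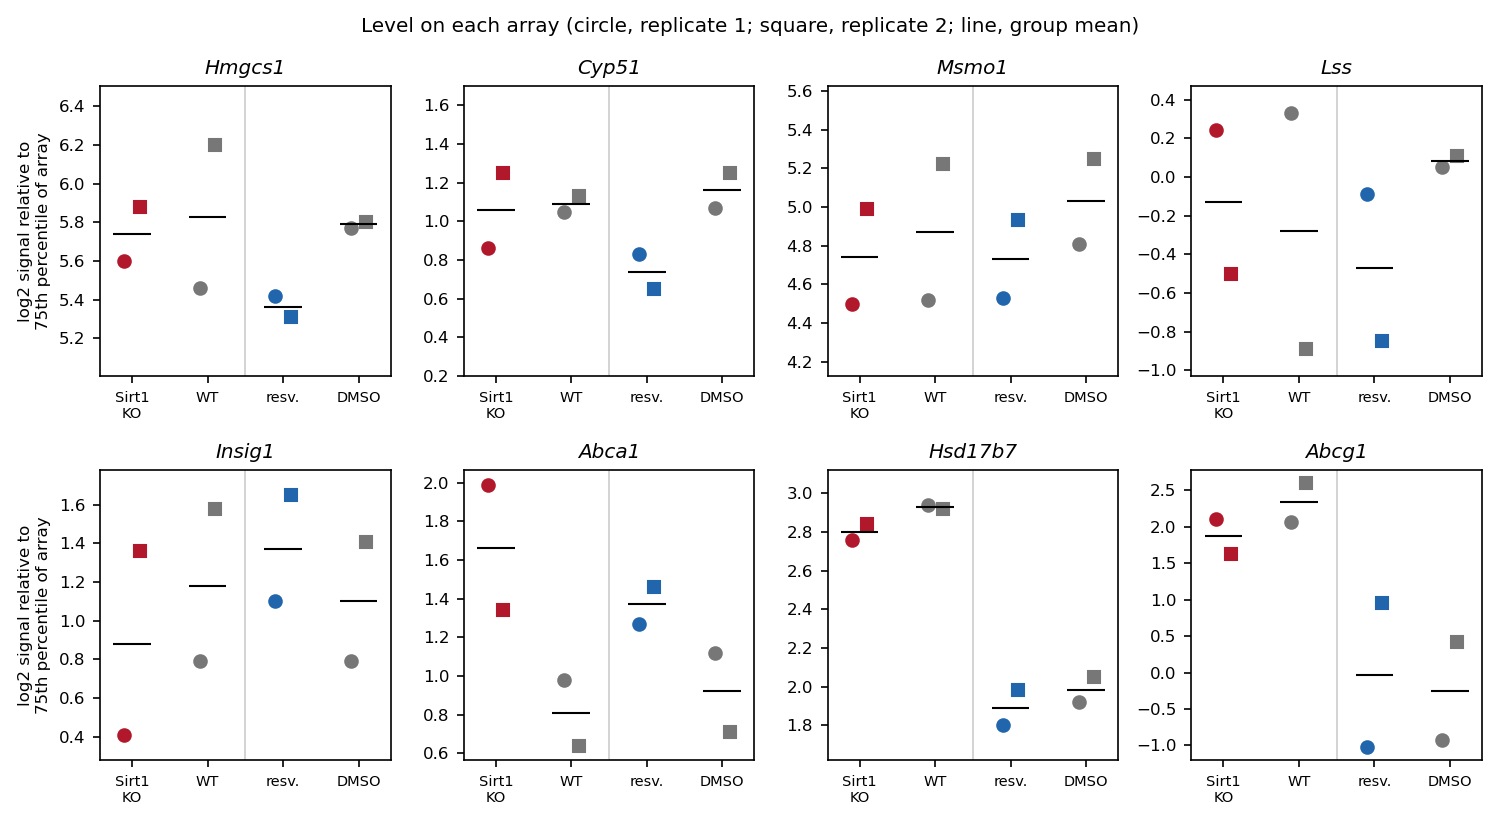
Level of 8 genes on each array, as log2 signal relative to the 75th percentile of the array (vertical axes differ between genes), for Sirt1 KO, WT, resveratrol and DMSO, with replicate 1 as circles, replicate 2 as squares and the group mean as a line. Hmgcs1 and Cyp51 lie below DMSO on both resveratrol arrays, Abca1 lies above WT on both Sirt1 KO arrays, and Hsd17b7 and Abcg1 separate the arms.

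Fatty acid genes in Sirt1 KO had a median of 0.10. In both replicate numbers 5 of 11 were higher, against 23.5% of all genes, and 2 were lower, against 32.6%. The 5 were desaturases and an acyltransferase. Fads1, a desaturase of polyunsaturated fatty acids, read 3.07 and 2.35 in Sirt1 KO, against 2.77 and 1.76 in WT (0.45, SE 0.58), with overlap between the groups and a change of sign without WT replicate 2. Fads2, which acts before Fads1, differed by 0.26, Scd1 by 0.24 and Scd2 by 0.24, but Scd1 differed by -0.18 without WT replicate 2 and by -0.08 without Sirt1 KO replicate 1. Gpam, which starts glycerolipid synthesis, read -2.86 and -3.05 in Sirt1 KO, against -3.23 and -3.47 in WT, without overlap (0.39, SE 0.32), but turned sign under normexp. The 2 lower genes were Elovl6 (-0.25) and Acly (-0.12), and both turned sign under normexp. Acacb read -4.54 and -3.78 in Sirt1 KO, against -4.70 and -2.64 in WT, so that its difference of -0.49 came from the WT replicate 2 array and turned sign without it.

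The 17 mevalonate and sterol genes in Sirt1 KO had a median of -0.12. In both replicate numbers 9 were lower, against 32.6% of all genes, and 1, Acat2 (0.22), was higher, against 23.5%. Differences of the 17 genes ran from -0.24 for Ebp to 0.26 for Nsdhl. Idi1 read 3.06 and 3.24 in Sirt1 KO, against 3.14 and 3.61 in WT (-0.22, SE 0.26), and Fdps differed by -0.23. The 9 lower genes, Pmvk, Idi1, Fdps, Fdft1, Sqle, Msmo1, Hsd17b7, Ebp and Dhcr7, all turned sign under normexp. Insig1 read 0.41 and 1.36 in Sirt1 KO, against 0.79 and 1.58 in WT. It differed by -0.38 and -0.22 in the pairs (-0.30, SE 0.45), and it kept this direction under normexp, but its other kept probe differed by -0.21 and 0.23. Stard4 differed by -0.22, Srebf2 by -0.05 and Srebf1 by -0.04.

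Whether the genotype and the treatment moved a gene differently was tested as the difference between both differences. Limma called 0 of 38 members and 0 of all genes (0.00% in each direction), where 50 genes (0.375%) were higher and 76 (0.570%) lower at an unadjusted p of 0.05. With replicate number as a block it called 0 members, where 0.165% of all genes were higher and 0.203% lower. The smallest adjusted p with the block was that of Fads1, whose gap was 0.76 (SE 0.82 without the block; limma with the block, adjusted p = 0.206). The gap of Insig1 was -0.58 (SE 0.63 without the block; limma with the block, adjusted p = 0.238). For Hmgcs1 the gap was 0.33 (SE 0.55), and for Abca1 it was 0.40 (SE 0.43), each with an adjusted p of 1.

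The untreated WT arrays and the DMSO arrays are the controls of the arms. They differ in strain and in the last 24 hours with DMSO, for replicate 1 also in sex and for replicate 2 also in slide and scan day, and these cannot be told apart. Hsd17b7 and Abcg1 were higher on both WT arrays than on both DMSO arrays and had the smallest adjusted p-values of the members. Limma called 0 of the 38 members, where it called 0.0450% of all genes higher and 0.0300% lower. Of the members 11 were higher in both replicate numbers, against 32.6% of all genes, and 14 lower, against 27.8%, with a median of 0.01, against 0.02 over all genes. Groups that did not overlap were higher in 6 members, against 13.5% of all genes, and lower in 4, against 12.7%. With replicate number as a block, 2 members passed as higher, Hsd17b7 and Abcg1, and 0 as lower, where 2.99% and 2.77% of all genes did. In this block WT and DMSO share the slide only in replicate 1 and the sex only in replicate 2.

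Hsd17b7, which encodes the ketone reductase of the sterol pathway, read 2.94 and 2.92 in WT, against 1.92 and 2.05 in DMSO. It was 1.93-fold higher (0.95, SE 0.21, 95% interval 0.45 to 1.45; limma, adjusted p = 0.305), and its other kept probe differed by 0.65. The Sirt1 KO arrays, at 2.76 and 2.84, lay near WT, and the resveratrol arrays, at 1.80 and 1.98, lay near DMSO. The gene thus split by arm on all 8 arrays, with at most 0.18 in size between replicates of a group. On the slide that held both WT and DMSO replicate 1, the difference was 1.02.

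Abcg1 read 2.07 and 2.60 in WT, against -0.93 and 0.42 in DMSO, and it was 6.02-fold higher (2.59, SE 0.70, 95% interval 0.92 to 4.26; limma, adjusted p = 0.451). It had 1 kept probe. It read 2.11 and 1.63 in Sirt1 KO and -1.02 and 0.95 with resveratrol, so the arms did not overlap for this gene either. With slide as a block it passed (2.96; limma, adjusted p = 0.0118), where 0.495% of all genes were called higher and 0.593% lower, and on the shared slide the difference was 3.0. In Acacb, which read -4.70 and -2.64 in WT, against -5.50 and -4.18 in DMSO, the groups overlapped, and the difference of 1.17 (SE 0.87) was 0.14 without WT replicate 2. The difference was positive in Acat2 (0.56, SE 0.38) and negative in Nr1h3 (-0.69, SE 0.32), each time in both replicate numbers, and Nr1h3 turned sign under normexp.

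Of the other lipid genes, Lpl, the lipoprotein lipase gene, differed between WT and DMSO by 1.51 (SE 0.45), Elovl7 by 0.71, Rxra by 0.62 and Pltp by 0.54. Lower in WT were Thrsp (-1.41, SE 0.51), Apoe (-1.38, SE 0.40), Me1 (-1.12, SE 0.34), Apod (-0.85), Lpin1 (-0.77) and Agpat2 (-0.77), of which Apod and Agpat2 turned sign under normexp. Apod was well above background on 0 of 2 WT arrays and passed the filter only through the DMSO arrays. Agpat2 was well above background on 1 of 2 WT arrays, so the size of both differences is uncertain. Limma called none of these other lipid genes, with adjusted p-values of 0.511 for Lpl and Apoe, 0.551 for Me1 and 0.726 for Thrsp. With replicate number as a block limma called Thrsp (adjusted p = 0.0104), Lpl (0.0144), Apoe (0.0155), Me1 (0.0290) and Lpin1 (0.0424). With the block, Lpin1 lost its call after quantile normalization and Lpl after averaging of probes. With slide as a block Me1 passed (adjusted p = 0.0364 in limma). Astrocyte markers differed by a median of -0.87 and oligodendrocyte precursor markers by -0.76, and their part in these values was not tested.

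Replicate numbers were also compared within each group, between single arrays. The median size of the difference between replicate 2 and replicate 1 was 0.35 over the members. Between single arrays of 1 replicate number, the median size was 0.21 for Sirt1 KO minus WT and 0.20 for resveratrol minus DMSO. Over all genes these sizes were 0.53, 0.22 and 0.18. Replicate 2 was higher than replicate 1 in all 4 groups for 17 members, against 44.3% of all genes, and lower in all 4 for 6, against 21.3%.

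Ebp read 4.28 in replicate 2 and 2.82 in replicate 1 of Sirt1 KO, and its replicate difference ran from 1.07 to 1.46 over the 4 groups. Pmvk, Dhcr7, Insig1 and Acacb were likewise higher in replicate 2 by at least 0.5 in every group, as were 18.8% of all genes. Fads1, Scd1 and Elovl6 were lower by at least 0.5 in every group, as were 6.64% of all genes, with a range of -1.34 to -0.72 for Fads1. Fads2, Elovl5 and Fasn, also genes of fatty acid synthesis, differed in the other direction in every group. However, the other kept probe of Elovl5 ran from -0.51 to -0.13 and that of Fasn from -0.52 to 0.39. Probes of 1 gene did not always share the direction: the other kept probe of Dhcr7 ran from -1.01 to -0.04, where the one used ran from 0.53 to 0.82, and the other probe of Hmgcs1 from -0.95 to -0.20, where the one used ran from -0.11 to 0.74. Signal strength, slide and, in the genotype arm, sex and scan day go with replicate number, and these cannot be told apart.

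**Figure D4:**
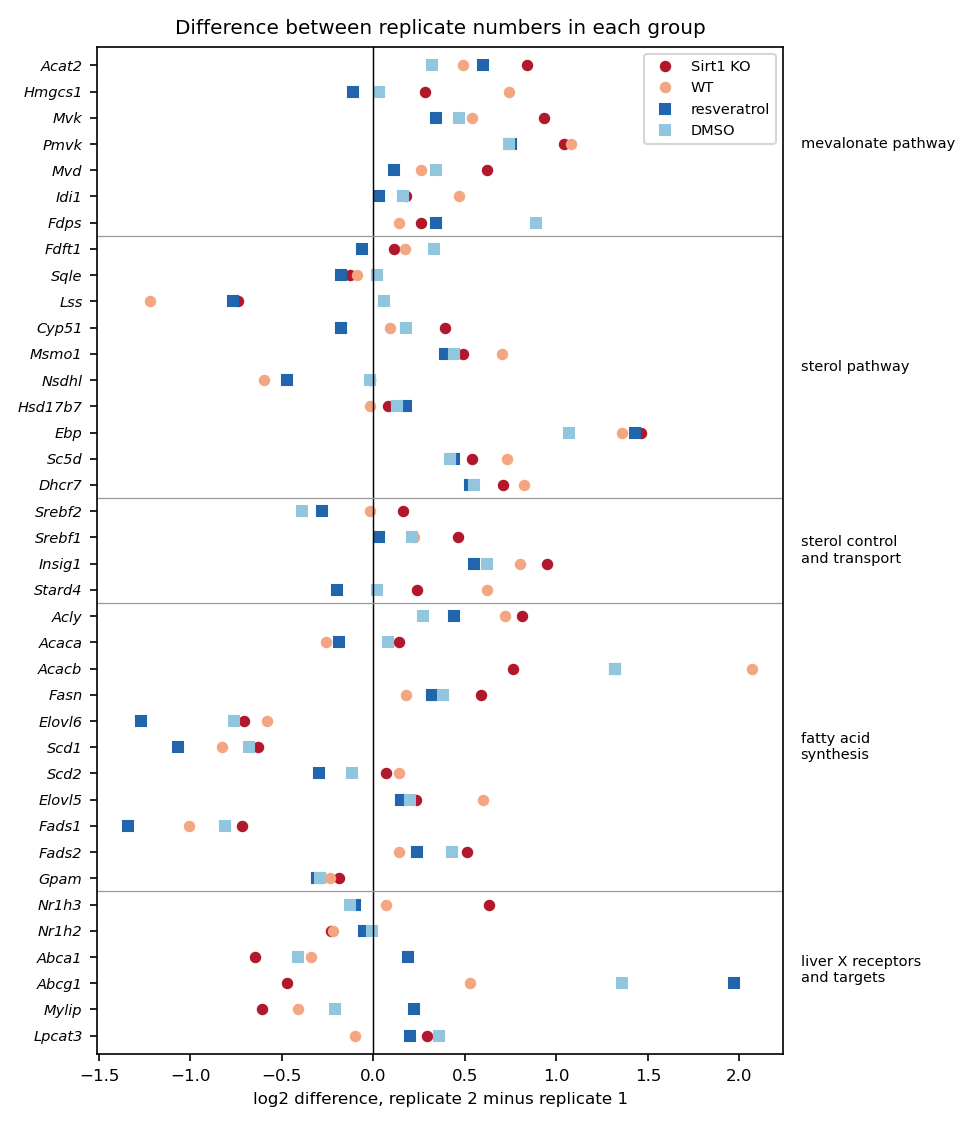
Log2 difference between replicate 2 and replicate 1 (horizontal axis) of each gene in Sirt1 KO and WT (circles) and in resveratrol and DMSO (squares). Ebp lies right of 0 by 1.07 to 1.46 in all 4 groups, and Fads1 lies left of 0 by -1.34 to -0.72.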

How the data were processed

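RNA was measured on 8 one-colour Agilent arrays. The scanner software was Agilent Feature Extraction, 10.7 in the submitters' processing notes and 10.7.3.1 in the file headers. Each deposited scanner file gives a processed intensity per spot, which the software had background-corrected per the file headers. The deposited table holds the authors' log2 values of the same arrays, with medians of 6.28 on 6 arrays and 6.01 on WT 2 and Sirt1 KO 2. How it was normalized is not given in the sources used here, and it served as an alternative. Control spots and 45 to 103 outlier spots per array were left out, and spots of a probe were averaged to 41174 probes. The log2 intensity was centred on the array's 75th percentile. Probes well above background on both arrays of a group were kept (26361), symbols came from RefSeq accessions (14256 probes had none), and the brightest kept probe stood for its gene.

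Group means were fitted over all 8 arrays in limma 3.58.1 (R 4.3.3) with an intensity trend, two-sided, adjusted by Benjamini-Hochberg over 13332 genes at 0.05; the fit was tested on simulated data. The headers place resveratrol 1, DMSO 1 and WT 1 on slide 1. Slide 2 carried resveratrol 2, DMSO 2 and Sirt1 KO 1. Slide 3, scanned on another day, carried Sirt1 KO 2 and WT 2. Replicate number is therefore slide in the treatment arm and sex in the genotype arm. Deviations from the group mean correlated between same-numbered arrays at 0.737 (Sirt1 KO with WT), 0.834 (resveratrol with DMSO) and 0.596 (WT with DMSO, which share neither slide nor sex throughout). Replicate number and slide were fitted as blocks beside the group means. Normexp used median signals with an offset of 50. Other alternatives were quantile normalization, no filter, the mean of a gene's probes, no trend and leaving out each array.

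The members and lists were chosen with earlier results of these data known. The text names all members, Apoe, Sirt1, and, in each comparison, up to 10 other lipid genes that differed by at least 0.5 with the same sign in both replicate numbers. Some other lipid genes are not reported here.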

Additional observations from a re-analysis of the deposited data

How the results depend on the processing

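Every value rests on 2 arrays a group, which limits its precision. With a replicate block, limma called 57 genes for Sirt1 KO minus WT, 73 for resveratrol minus DMSO, 768 for WT minus DMSO and 49 for the difference between the arms, with 0 members except 2 in WT minus DMSO, Hsd17b7 (adjusted p = 0.00387) and Abcg1 (adjusted p = 0.0262). WT and DMSO share the slide only in replicate 1 and the sex only in replicate 2. These 2 also passed with the block added, after seeing the data, to quantile normalization (25, 37, 750 and 24 genes), averaged probes (18, 3, 684 and 10) and the deposited table (17, 21, 727 and 14). The block with normexp called 5813, 111, 6714 and 3403 genes and 14, 0, 22 and 16 members. With a slide block 145 genes and 1 member passed in WT minus DMSO, and the member medians were -0.11 for Sirt1 KO minus WT and for WT minus DMSO, where all genes moved to -0.11 and -0.07.

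Normexp gave a member median of 0.16 for Sirt1 KO minus WT, with 22 members higher and 4 lower in both replicate numbers, and of -0.25 for WT minus DMSO, with 23 lower and 4 genes called. Its cause was not tested. The medians for Sirt1 KO minus WT and WT minus DMSO were -0.03 and -0.05 with quantile normalization, -0.03 and -0.04 with averaged probes, and -0.03 and -0.11 with the deposited table. Without 1 array at a time, the member median ran from -0.20 to 0.14 for Sirt1 KO minus WT, from -0.21 to 0.03 for resveratrol minus DMSO and from -0.10 to 0.08 for WT minus DMSO. In the same order, the median over all genes ran from -0.16 to 0.12, from -0.09 to 0.14 and from -0.09 to 0.15. The genes called ran from 0 to 5 for Sirt1 KO minus WT, from 0 to 4 for WT minus DMSO and from 0 to 3 for the difference between the arms, and the median of the 17 mevalonate and sterol genes with resveratrol from -0.37 to -0.03. In these fits an array of 1 replicate number meets both of the other group, and a lone array is assumed to vary like the other groups. Of the members called with the block and normexp, 4 of 14 in Sirt1 KO minus WT and 3 of 22 in WT minus DMSO had the sign opposite to the fit of group means, among them Gpam (-0.94 and 0.93) and Nr1h3 (-0.93 and 0.68).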
